A study of Amphiprion ocellaris with 30 samples.

Results

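SR9243 against DMSO in clownfish larvae is the comparison of 20 of the 30 RNA-seq libraries of the study, 10 from larvae kept with SR9243 and 10 from larvae kept with the solvent DMSO (dimethyl sulfoxide). The libraries were taken by their labels, with earlier results of these data known. All came from whole wild-type larvae of Amphiprion ocellaris, held in sea water in beakers at 27°C and collected on day 5 of treatment. The SR9243 larvae received the compound at 1e-07 M, and the DMSO larvae received the solvent at 0.0001%. The labels do not state whether the SR9243 beakers also held DMSO, so an effect of the solvent and of the compound cannot be told apart. The remaining 10 libraries came from larvae treated with T3 at 1e-07 M, and they are used here only where a gene or a group of genes is set beside them. The tag IOP in their titles is left unexplained by the labels. The labels do not say whether a library is 1 larva, nor which beaker or clutch it came from, so p-values measure the spread between these libraries, which may be partly technical. Because whole larvae were used, a change in the number of cells of a type cannot be told apart from a change in RNA per cell.

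SR9243 is a synthetic ligand of LXR, the liver X receptor, which the series title calls an antagonist. LXR is a nuclear receptor that binds DNA together with the retinoid X receptor and is switched on by oxidised forms of cholesterol. In mammals it raises genes of cholesterol export and of fatty acid synthesis, mainly in liver, gut and macrophages. T3 (triiodothyronine) is the active form of thyroid hormone and acts through its own nuclear receptors, also at the metamorphosis of fish and amphibians. In clownfish, metamorphosis turns a transparent larva into a coloured juvenile with white bars.

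Values are the authors' variance-stabilised counts, on a scale that resembles log2 for abundant genes and is compressed for rare ones. They ran from 2.88 to 18.7 in the 20 libraries. The lowest value was the same in every library, and a gene at it is described here as listed at 0. Read totals cannot be had from these values, so the depth is unknown. The median level of a library was 6.91 ± 0.013 (SD, n = 10) in SR9243 and 6.88 ± 0.0132 (SD, n = 10) in DMSO libraries, a difference of 0.0281 (permutation test over libraries, two-sided, adjusted p = 0.00072). The number of tested genes listed at 0 was 320.1 ± 28.9 in SR9243 and 297.1 ± 26.3 in DMSO libraries (SD, n = 10 each), which did not pass the test (permutation test, adjusted p = 0.0808). Genes are named by Ensembl ID only. None could be paired with a symbol, so no LXR target or thyroid gene can be pointed out, the tissue label could not be checked against marker genes, and the genes are grouped by direction, size and level.

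Between SR9243 and DMSO libraries, 5549 of 22332 tested genes differed (24.8%, limma with Benjamini-Hochberg adjustment over all tested genes, adjusted p below 0.05). Such a gene is termed called. Of these, 2941 genes (13.2%) were higher in SR9243 libraries, here said to rise, and 2608 genes (11.7%) were lower, here said to fall. Most changes were small: called differences had a median size of 0.467 on the log2 scale, and 3091 called genes (55.7%) moved by less than 0.5. Genes that rose had a median difference of 0.51, and genes that fell had a median of -0.43. Over all tested genes, the median difference was -0.0081.

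Large changes were mostly increases. A difference of at least 0.5 was reached by 1504 increases (6.73%) and 954 decreases (4.27%). A difference of at least 1, a doubling at high levels, was reached by 295 genes that rose (1.32%) and 147 genes that fell (0.658%). At a size of at least 2, the counts were 52 genes that rose (0.233%) and 18 that fell (0.0806%). The 295 genes had a median level of 8.03 in SR9243 libraries and 6.48 in DMSO libraries. The 147 genes had a median level of 6.39 in SR9243 libraries and 7.89 in DMSO libraries. Among called differences under 0.5, decreases were the more frequent, with 1437 increases and 1654 decreases. Over called genes of all sizes, whether increases or decreases led depended on the scaling: after library medians were set equal, 2600 genes rose and 3198 fell, while quantile normalisation gave 2768 increases and 2986 decreases.

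**Figure D1:**
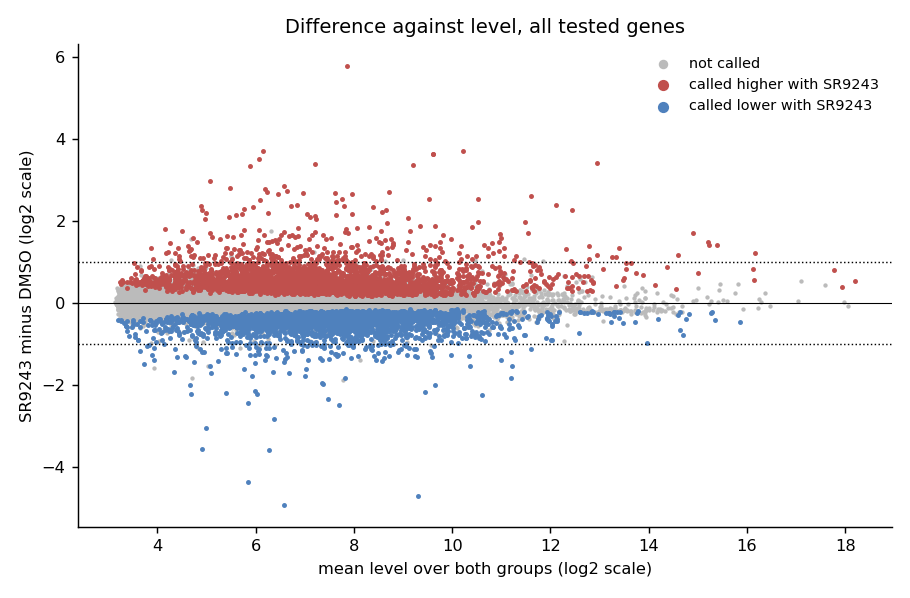
Difference between SR9243 and DMSO means (y axis, log2 scale) against the mean level over both groups (x axis, log2 scale) for 22332 tested genes. Called genes are red where higher with SR9243 (2941) and blue where lower (2608), and dotted lines mark a difference of 1. Among called genes, 295 reach it upward and 147 downward.

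The share of genes called grew with their level. In the lowest decile of mean level (3.15 to 4.37), 5.28% of the genes rose and 3.54% fell. In the fifth decile, 14.5% rose and 11.2% fell. In the highest decile (9.29 to 18.2), 17.4% rose and 17.0% fell. The SE of a difference moved with the level as well: its median was 0.16 in the lowest decile, 0.0965 in the ninth and 0.107 in the highest, and its part in the trend was not tested. The typical called difference varied little in size, with medians from 0.535 in the lowest decile to 0.423 in the ninth.

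The highest decile held more strong increases than any other decile, although most of the 295 lay outside it. The highest decile contained 64 genes that rose by at least 1, against 7 to 37 in each of the other deciles. Genes that fell by at least 1 were spread more evenly, with 16 in the highest decile and 9 to 20 in each of the others. The scale is compressed for rare genes, so a difference of 1 is harder to reach in the low deciles. These counts follow the called genes and were not tested against each other.

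**Figure D2:**
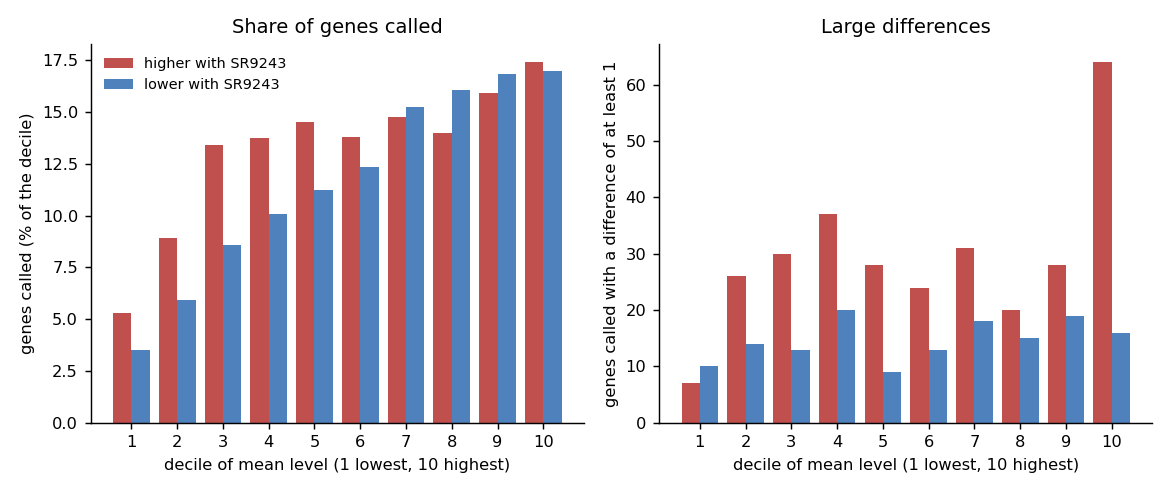
Share of genes called (left, % of the genes of a decile) and number of called genes with a difference of at least 1 (right), by decile of mean level over the 20 libraries (x axis, 1 lowest). Red bars are genes higher with SR9243 and blue bars are genes lower; the highest decile stands out on the right with 64 strong increases.

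The largest increase was in ENSAOCG00000015745. Its values in SR9243 libraries ran from 9.49 to 11.6 with a median of 10.7, against 2.88 to 9.45 with a median of 3.15 in DMSO libraries. The groups did not overlap, but 3 DMSO libraries came near: library 8 at 9.45, library 10 at 9.11 and library 2 at 7.71. In 5 DMSO libraries the gene was listed at 0, while all 10 SR9243 libraries held it at a level typical of the highest decile of genes. The difference was 5.79 (SE 0.80, limma adjusted p = 3.35e-05).

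ENSAOCG00000013773 had the next largest increase. It lay between 6.34 and 8.83 in SR9243 libraries (median 8.16), against 2.88 to 6.66 in DMSO libraries (median 3.89). SR9243 was the higher in 98 of 100 pairs of an SR9243 and a DMSO library, and SR9243 library 9 (6.34) was the one that fell below DMSO libraries 8 (6.66) and 2 (6.55). DMSO library 10, high for the gene before, was low here at 3.59. The difference was 3.71 (SE 0.43, limma adjusted p = 5.36e-06).

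The largest decrease was in ENSAOCG00000024738. Its values ran from 2.88 to 7.36 in SR9243 libraries (median 3.79), against 6.11 to 10.5 in DMSO libraries (median 9.54). SR9243 library 3 stood apart at 7.36, with the other SR9243 libraries at 4.55 or below, and it overlapped DMSO libraries 8 and 10 only. These DMSO libraries, at 6.11 and 7.31, were the low ones of their group. The difference was -4.94 (SE 0.52, limma adjusted p = 1.81e-06), and without SR9243 library 3 it was -5.30 (limma adjusted p = 2.2e-07).

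ENSAOCG00000013714 fell nearly as far and in the same libraries. It lay between 5.92 and 9.63 in SR9243 libraries (median 6.79), against 8.4 to 13.0 in DMSO libraries (median 12.2). SR9243 library 3 was again high at 9.63, above DMSO libraries 8 (8.4) and 10 (9.44), which were the lowest of their group. The difference was -4.71 (SE 0.52, limma adjusted p = 3.03e-06), and -5.01 without SR9243 library 3 (limma adjusted p = 1.1e-06). These 4 genes passed the test in every alternative that tested them, with a largest adjusted p of 0.00314 over the limma fits and the rank test. They were chosen for their size in these same libraries, so passing again is favoured by construction. The filter for genes above the lowest value in all 20 libraries left ENSAOCG00000013714 as the only one of them tested.

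**Figure D3:**
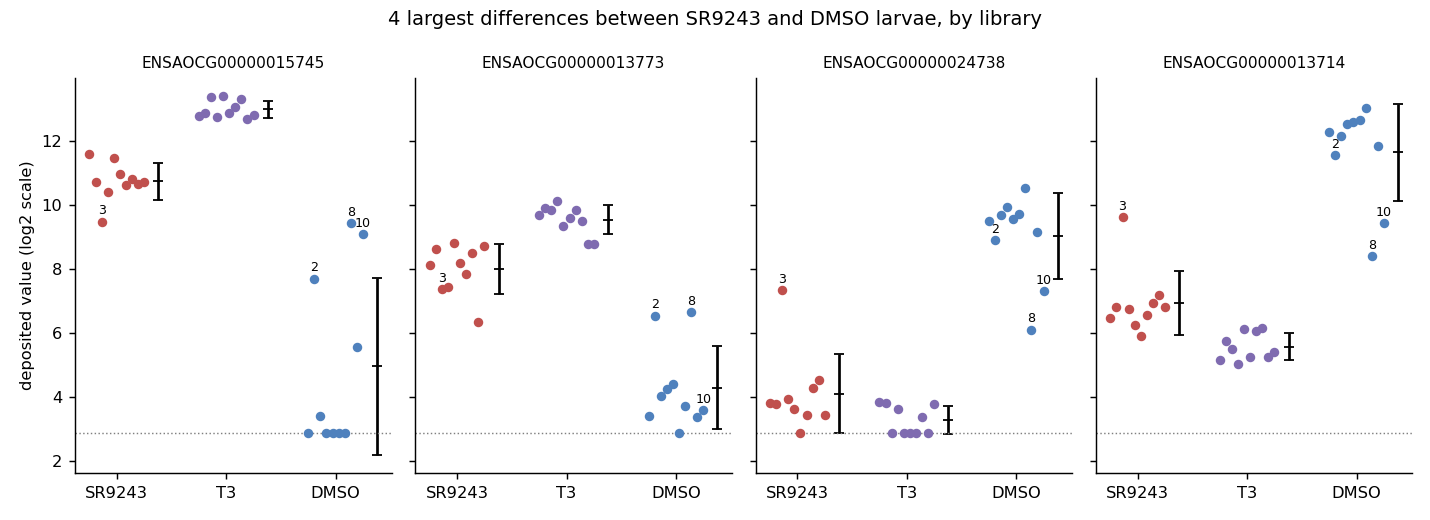
Deposited values (y axis, log2 scale) of the 4 genes in every library of the SR9243, T3 and DMSO groups, with the mean ± SD in black beside each group (n = 10) and the lowest value of the table as a dotted line. Numbers mark SR9243 library 3 and DMSO libraries 2, 8 and 10; in the 2 genes that fell, library 3 lies at 7.36 and 9.63, above the rest of its group.

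Most called genes differed in many libraries, and few differed in all of them. Groups did not overlap for 382 genes (1.71%), of which 269 (1.2%) were higher and 113 (0.506%) lower with SR9243. All 382 were called, which complete separation of the groups favours by construction. Among genes that rose, the median gene had 6 of 10 SR9243 libraries above every DMSO library, and among genes that fell 5 of 10 lay below every DMSO library. At least 8 such libraries were counted in 938 increases and 650 decreases. The genes were called on these same libraries, which favours such counts by construction, and genes not called were not counted in this way. At the other end, 136 genes that rose and 165 that fell had no SR9243 library outside the DMSO range, so their call rests on shifted means of overlapping groups.

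Overlap was rarer among larger differences, and choosing genes by size favours this by construction. Over all tested genes, 1.2% were higher and 0.506% lower with SR9243 without overlap. No overlap was seen in 108 of the 295 increases of at least 1 and in 33 of the 52 increases of at least 2. For decreases, the counts were 32 of 147 and 7 of 18. The called genes with the widest difference were also the most variable within DMSO: the 52 largest increases had a median SD of 0.48 among SR9243 libraries and 1.02 among DMSO libraries, and the 18 largest decreases 0.426 and 1.43.

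**Figure D4:**
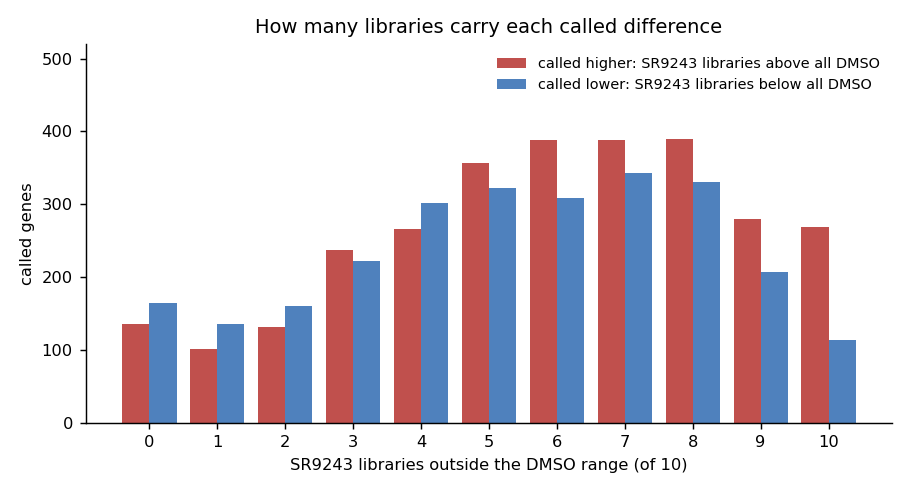
Number of called genes (y axis) by how many of the 10 SR9243 libraries lay outside the range of the DMSO libraries in the called direction (x axis). Red bars are genes that rose and blue bars genes that fell; 269 and 113 genes reach all 10 libraries, and 136 and 165 reach none.

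Each library was then compared with the others after being left out of the fit, so that it had no part in choosing the genes. A position was computed along the line from the mean of the DMSO libraries (0) to the mean of the SR9243 libraries (1), over all tested genes. SR9243 libraries lay between 0.704 and 1.14 with a median of 0.981. DMSO libraries lay between -0.112 and 0.383 with a median of 0.0891. The groups were separate, and both were spread along the line. DMSO libraries 8 (0.383) and 10 (0.374) were the DMSO libraries nearest to SR9243, and SR9243 libraries 8 (0.704) and 7 (0.742) the SR9243 libraries nearest to DMSO. No test is given, because the line is drawn between the same groups.

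The same DMSO libraries stood out among strongly changed genes. Among genes called with a difference of at least 1 in the fit without it, a left-out SR9243 library lay nearer to the SR9243 mean for 74.2% to 96.7% of the genes (median 92.9%). A left-out DMSO library lay nearer to the DMSO mean for 51.9% to 96.5% (median 84.8%). DMSO libraries 8 and 10 had the lowest shares, 51.9% and 54.0%, and the next lowest DMSO share was 78.6%. In these libraries, nearly as many genes lay closer to the SR9243 mean as to the mean of their own group. Over all called genes, the shares were 56.2% to 91.2% in SR9243 libraries and 60.4% to 86.3% in DMSO libraries, where the lowest was library 7. Among genes not called, where left-out libraries also tend towards their own group, the shares reached 65.7% in SR9243 and 63.0% in DMSO libraries. SR9243 library 8 lay at 56.2% in called genes and 54.4% in genes not called, so its own-group share hardly differed between them.

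Genes that rose and genes that fell gave different orders of the DMSO libraries, while SR9243 libraries 7 and 8 were the least changed of their group in both. In genes called higher without the library, SR9243 libraries 7 and 8 were a median of 0.35 and 0.362 above the DMSO mean, where the other SR9243 libraries were 0.428 to 0.623 above it. DMSO libraries 8 and 10 were 0.196 and 0.205 above the mean of the other DMSO libraries, and the remaining ones between -0.0579 and 0.0855. In genes called lower, SR9243 libraries 8 and 7 lay at -0.199 and -0.27, with the others at -0.392 to -0.521. DMSO library 7, the lowest of its group in genes called higher, was also the lowest in these genes, at -0.144, and thus the nearest to SR9243 there. DMSO libraries 3 (-0.124), 8 (-0.116), 4 (-0.112) and 10 (-0.0958) lay behind it. By this median over all called decreases, libraries 8 and 10 did not stand out. For the largest decreases named above, however, they were the lowest of the DMSO libraries. With DMSO library 8 left out 5512 genes were called, and with library 10 left out 5415. The number of tested genes listed at 0 was 294 and 291 in DMSO libraries 8 and 10, within the range of the DMSO group (259 to 342).

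**Figure D5:**
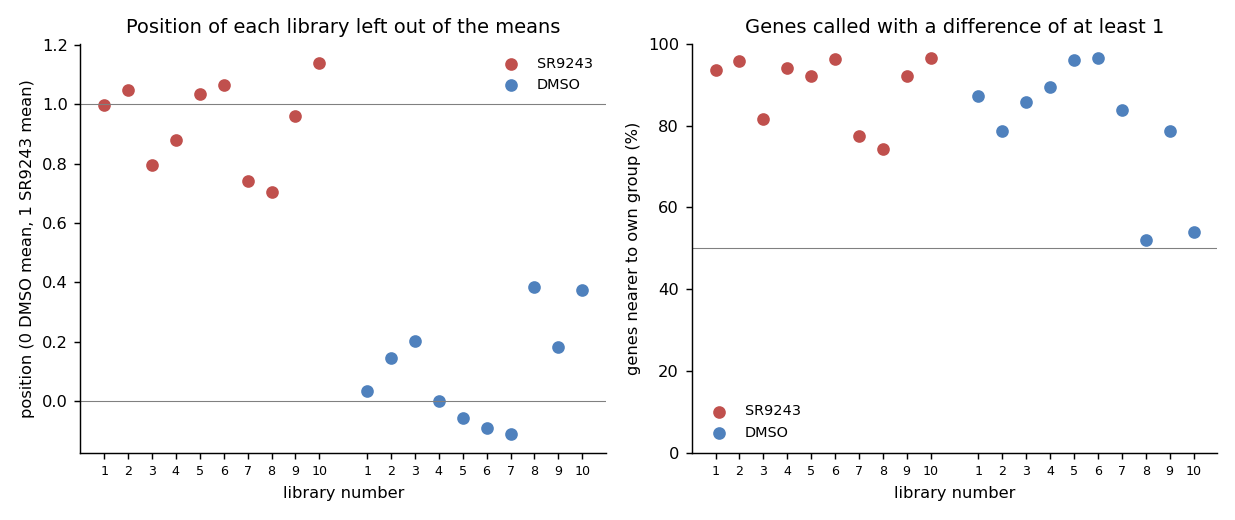
Each library after being left out of the means: position between the DMSO mean (0) and the SR9243 mean (1) over all tested genes (left), and share of the genes called with a difference of at least 1 in which it lay nearer to its own group (right, %, line at 50). Points are libraries (x axis, library number), SR9243 in red and DMSO in blue; DMSO libraries 8 and 10 lie at 0.383 and 0.374 on the left and near 50% on the right.

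An earlier analysis of these data had set SR9243 libraries 1 to 5 apart from 6 to 10, a difference that was not tested here. Each set was therefore also compared with all 10 DMSO libraries. Libraries 1 to 5 gave 3768 called genes (16.9%), with 1966 higher and 1802 lower. Libraries 6 to 10 gave 3278 called genes (14.7%), with 1910 higher and 1368 lower. In the 2941 genes that rose over all libraries, the median difference was 0.52 with libraries 1 to 5 and 0.49 with libraries 6 to 10. In the 2608 genes that fell, the medians were -0.45 and -0.41. These genes were chosen with all libraries, and each set was compared with the same DMSO libraries. Similar medians are thus favoured by construction and do not show that the sets agree. Of the 5549 called genes, 1673 were called with each set alone and 1346 with neither set, where fewer libraries lower the counts by construction. In 11 genes, all outside these 5549, the sets gave calls in opposite directions. Libraries 6 to 10 included both the SR9243 libraries nearest to DMSO (7 and 8) and the farthest ones (6 and 10, at positions 1.06 and 1.14). For the largest increase, ENSAOCG00000015745, also chosen with all libraries, the difference was 5.78 with libraries 1 to 5 and 5.80 with libraries 6 to 10.

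SR9243 libraries were more alike than DMSO libraries, a gap in the median SD that closed without 2 of the DMSO libraries. The median gene had an SD of 0.229 among SR9243 and 0.286 among DMSO libraries, and the SD was larger in DMSO for 68.2% of tested genes. Each library's root-mean-square distance to the mean of its fellow libraries averaged 0.312 ± 0.0304 in SR9243 and 0.389 ± 0.125 in DMSO (SD, n = 10 each; permutation test, adjusted p = 0.0282). Distances within a group share libraries in their means and are not independent, which limits every permutation test of them. DMSO library 7, at 0.723, and library 4, at 0.438, were the farthest. Leaving out the farthest libraries of the DMSO group only lowers its spread by construction. Without these libraries the median SD in DMSO was 0.228, the SD was larger in SR9243 for 50.1% of genes, the DMSO distance was 0.329 ± 0.0312 (SD, n = 8), and the difference no longer passed (exact permutation test, p = 0.241). The genes called numbered 6989 (31.3%) without them, 3582 higher and 3407 lower. DMSO libraries 4 and 7 lay at -0.00135 and -0.112 on the line over all tested genes, at the DMSO end, although library 7 was the DMSO library nearest to SR9243 in the called decreases.

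Few genes were switched on or off. Not 1 of the table's genes was listed at 0 throughout one group and detected throughout the other (0 in each direction). In 8 genes, at least 5 DMSO libraries and no SR9243 library were listed at 0, and 7 of them were called higher. In 9 genes, at least 5 SR9243 libraries and no DMSO library were listed at 0, and 5 of them were called lower. Choosing genes by detection in these same libraries favours such calls by construction. Over all tested genes, 13.2% were called higher and 11.7% lower.

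For the 16783 genes that were not called, the data set limits on the size of a difference. The half-width of the 95% interval had a median of 0.252 in these genes. The interval lay within a difference of 0.5 in either direction for 12245 of them (73.0%) and within 1 for 16358 (97.5%). In 33 genes it reached 2 or more, so a difference of that size was not excluded there. The scale is compressed for rare genes, so an interval within 1 does not exclude a doubling in them. Each interval holds for a single gene and not for all of them together.

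The SR9243 libraries were last set against the T3 libraries in a direct test that uses no DMSO library. It called 9213 of 22328 genes (41.3%), with 4453 higher (19.9%) and 4760 lower (21.3%) in SR9243. Each treatment was also compared with DMSO alone, and T3 against DMSO called 10927 of 22360 genes (48.9%), 24.0% higher and 24.9% lower with T3. These comparisons share libraries, so their values are only placed side by side. The 295 genes with an increase of 1 or more in SR9243 libraries had a median difference from DMSO of 1.33 with SR9243 and 1.86 with T3. In the direct test, 29 of them were higher with SR9243 than with T3, 164 were lower, and 102 were not called. For the 147 genes that fell by at least 1, the medians were -1.25 with SR9243 and -1.44 with T3. Of these, 49 were higher with SR9243 than with T3, 28 were lower, and 70 were not called or not tested.

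Of the 4 named genes, the 2 largest called differences in each direction, 3 had moved further with T3. ENSAOCG00000015745 lay between 9.49 and 11.6 in SR9243 and between 12.7 and 13.4 in T3 libraries, with no overlap (difference -2.25, SE 0.18, limma adjusted p = 1.48e-09). ENSAOCG00000013773 lay at 6.34 to 8.83 in SR9243 and at 8.78 to 10.2 in T3 libraries, and only SR9243 library 5 (8.83) passed the lowest T3 libraries (difference -1.55, SE 0.25, limma adjusted p = 3.75e-05). ENSAOCG00000013714 was higher with SR9243, at 5.92 to 9.63, than with T3, at 5.05 to 6.16 (difference 1.37, SE 0.31, limma adjusted p = 0.0011). For ENSAOCG00000024738 the direct test did not pass: the difference was 0.82 (SE 0.37, limma adjusted p = 0.0810), and it was listed at 0 in 5 T3 libraries and 1 SR9243 library.

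Some genes lay beyond both other groups. With SR9243, 397 genes were called higher than in DMSO and also higher than in T3, with a median of 0.49 above DMSO. They were 13.5% of the genes that rose, where 19.9% of all genes were higher with SR9243 than with T3. A further 555 genes were called lower than in both, with a median of -0.45 against DMSO. They were 21.3% of the genes that fell, the same share as the 21.3% of all genes lower with SR9243 than with T3. A difference from DMSO of at least 1 was reached by 29 and 28 of these genes. Both tests use the SR9243 libraries, so the 2 calls of a gene are not independent.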

How the data were processed

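RNA was extracted from whole larvae, and stranded poly(A)-selected libraries were made, per the labels' protocols. Per the submitters' processing notes, FastQC 0.11.8 and kallisto 0.46.1 were used. Which annotation, genome build and variance-stabilising tool were used is not given in the sources used here. Values deposited by the authors are log2-scale, variance-stabilised counts of 30 libraries, with 22816 rows named by Ensembl gene ID. All columns were matched to samples by name, the columns headed TH being read as the T3 libraries, and 0 columns were left over. Total counts are not in the table, so no interval or floor from depth was computed. Of the 22816 IDs, 0 matched the reference gene table (28286 genes), so the gene lists could not be applied.

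A gene was tested if at least 10 of the 20 libraries exceeded the table's lowest value, a filter that removed 484 genes and left 22332. The SR9243 and DMSO libraries were fitted alone with limma 3.58.1 (R 4.3.3), using eBayes with its trend option, two-sided, with Benjamini-Hochberg adjustment and a threshold of 0.05. SR9243 against T3 and T3 against DMSO were fitted in the same way, each alone. Intervals use 18 residual degrees of freedom. The fit was run on simulated data with independent genes and equal spread in both groups, a simpler setting than that of these libraries. Measures with a single value per library were compared by 100000 permutations (scipy 1.17.1), adjusted over 3 tests. The libraries and all lists were chosen with earlier results of these data known. With no symbols, the 2 largest called differences in each direction are the genes named. The scaling, filter, variance model, test, threshold and library weights were varied, a replicate block was tried, and libraries were left out.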

Additional observations from a re-analysis of the deposited data

Results flagged for a closer look

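Among 24 sets of 10 values examined, 3 had a value far from the rest of its group, where chance alone marks about 1 set in 20. The sets share libraries and the named genes were chosen for their size, so the count cannot be judged by that rate. SR9243 library 3 stood apart for both genes with the largest decreases, at 7.36 for ENSAOCG00000024738 and at 9.63 for ENSAOCG00000013714, each above the other SR9243 libraries. DMSO library 7 had a root-mean-square distance of 0.723 to the mean of the other DMSO libraries, where the rest of its group lay between 0.29 and 0.438.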

How the results depend on the processing

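The count of genes called for SR9243 against DMSO stayed within 1.5 times of 5549 under filters, scalings and variance models. The same held for library weights (7722), a fit over 3 groups (6576) and a rank test (5433). It moved further at an adjusted p of 0.01, to 2965 genes (1631 higher and 1334 lower), and with SR9243 libraries 1 to 5 left out, to 3278 (1910 higher and 1368 lower), where fewer libraries or a stricter threshold lower the count by construction. Of the 5549 calls, 2616 were also made with SR9243 libraries 6 to 10 alone and 3260 with libraries 1 to 5 alone. With single libraries left out, the count ran between 4758 (without SR9243 library 10) and 6593 (without DMSO library 7), with 2519 to 3359 higher and 2239 to 3234 lower, and 4699 to 5268 of the main calls were made in the same direction. The median SD of a gene in DMSO was 0.228 without DMSO libraries 4 and 7, and the difference in distance was -0.0176, no longer past the threshold (exact permutation test, p = 0.241); leaving out the farthest libraries lowers both by construction. Same-numbered SR9243 and DMSO libraries did not deviate together (correlations of -0.201 to 0.121, over 0.1 in 1 of 10 pairs). The labels do not say what the numbers stand for, and a shared origin of same-numbered libraries was not tested. With the replicate block, 4659 genes were called for SR9243 against DMSO and 8441 for SR9243 against T3. With all genes of the table, the difference in library medians was 0.0289. Alternatives for gene lists were not run, since no ID had a symbol. Depth is unknown, so limits at low levels rest on the spread between libraries alone.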
